A study of Mus musculus with 8 samples.

Results

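Triacylglycerol is hydrolysed in different compartments by different lipases, and the 8 genes described here encode the main enzymes of each compartment with their cofactors. They were taken by gene symbol from the tables of both diets, and all 8 were among the 17740 genes listed for high-fat diet (HFD) mice and the 16436 listed for normal diet (ND) mice. The cytosolic group held 5 genes, Pnpla2, Pnpla3, Lipe, Mgll and Abhd5, the lysosomal group held Lipa alone, and the lipoprotein group held Lpl and Gpihbp1. All 8 genes passed the filter on low counts in both diets.

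RNA-seq had been performed on macrophages of the epididymal white adipose tissue (eWAT) of male wild-type C57BL/6J mice, with no transgene or other agent in any group. Adhesion-related macrophages (ARMs) were sorted from the cells that stayed with the floating adipocyte layer after collagenase digestion, and stromal vascular fraction macrophages (SMs, titled NARM in the labels) were sorted from the pellet, both by antibodies to CD45, CD11b and F4/80. HFD mice had received a diet of 60% fat for 8 weeks, starting at 6 weeks of age, and ND mice had received the diet that the labels call chow. There were 2 libraries in each of the 4 groups (HFD ARMs, HFD SMs, ND ARMs and ND SMs), each from pooled mice, 6 per HFD library and 10 per ND library.

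In the cytosol, lipid droplets are hydrolysed in sequence. Adipose triglyceride lipase (Pnpla2), switched on by the coactivator CGI-58 (Abhd5), releases the initial fatty acid from triacylglycerol, hormone-sensitive lipase (Lipe) acts on diacylglycerol, and monoacylglycerol lipase (Mgll) frees the last fatty acid and glycerol. Pnpla3 (adiponutrin) is a relative of Pnpla2 on the droplet surface. Lysosomal acid lipase (Lipa) hydrolyses cholesteryl esters and triacylglycerol delivered by endocytosis and autophagy, a route known for its weight in macrophages. Lipoprotein lipase (Lpl) is secreted and hydrolyses triacylglycerol of circulating lipoproteins, and Gpihbp1, best known from capillary endothelial cells, carries it to the vessel lumen and holds it there.

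In HFD mice, 4 of the 8 genes were called higher in ARMs than in SMs (Mgll, Gpihbp1, Pnpla3 and Lpl), and in ND mice 2 were (Pnpla3 and Mgll). The genes for the initial and middle steps of cytosolic lipolysis, Pnpla2 and Lipe, had log2 fold changes from 0.28 to 0.32 and were not called. In HFD mice their adjusted p was under 0.05 (0.0135 and 0.0222, edgeR), and only the fold change fell short. With single libraries left out, the HFD log2 fold changes ran from 0.271 to 0.338 for Pnpla2 and from 0.261 to 0.347 for Lipe. The ND values ran from 0.118 to 0.496 for Pnpla2 and from 0.0068 to 0.51 for Lipe. Neither Abhd5 nor Lipa was called in either diet. Calls required more than a 1.5-fold difference and an adjusted p under 0.05 (edgeR, quasi-likelihood test, Benjamini-Hochberg over all genes). The share of all genes called higher in ARMs at this threshold was 4.46% in HFD mice, next to 3.55% in ND mice. The share called lower was 0.292% and 0.129%, and none of the 8 genes was among these.

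The estimated read counts summed to between 14508824 and 19040133 per library. Replicates varied beyond counting noise, the mean chi-square per gene being 4.22 in HFD ARMs and 10.1 in ND ARMs (counting noise alone would give 1). For a single gene, the smallest two-sided p of an exact permutation test with 2 libraries a group is 0.333, and the spread was therefore estimated over all genes together. The 15 macrophage marker genes summed to between 16621 and 19708 FPKM (fragments scaled to transcript length and to mapped depth) in each library. Ptprc, Itgam and Adgre1, the genes of the sorting antigens, are among them. The sum therefore describes a level and is not a test of the label. Markers of adipocytes and of several other cell types were also detected, and their levels are given with the other gene lists. In bulk RNA, a change in the number of cells that express a gene and a change in RNA per cell cannot be told apart.

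The upstream sequences of the genes called in both diets, Mgll and Pnpla3, are shown beside that of Lipa, which was called in neither. They are RefSeq promoter sequences of GRCm38.p6, 5′ to 3′ on the strand of the gene, ending just before the annotated start except for Pnpla3, where the stretch stops at the end of a motif. Promoters were matched for 6 of the 8 genes (Pnpla2, Pnpla3, Lipe, Mgll, Abhd5 and Lipa). Capitals mark a match to one of 4 motifs searched on both strands of the 250 bases before each start site.
Mgll, chr6:88724162-88724411, plus strand: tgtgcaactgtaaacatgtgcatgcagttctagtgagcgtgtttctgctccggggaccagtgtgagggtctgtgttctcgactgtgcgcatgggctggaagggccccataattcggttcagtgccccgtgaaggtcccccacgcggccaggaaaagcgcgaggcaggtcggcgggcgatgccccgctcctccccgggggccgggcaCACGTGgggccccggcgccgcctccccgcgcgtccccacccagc
Pnpla3, chr15:84167566-84167777, plus strand: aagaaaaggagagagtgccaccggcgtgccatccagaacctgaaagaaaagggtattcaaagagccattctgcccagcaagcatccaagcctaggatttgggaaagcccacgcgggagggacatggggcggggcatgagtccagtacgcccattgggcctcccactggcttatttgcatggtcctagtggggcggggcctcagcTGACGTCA
Lipa, chr19:34527475-34527724, minus strand: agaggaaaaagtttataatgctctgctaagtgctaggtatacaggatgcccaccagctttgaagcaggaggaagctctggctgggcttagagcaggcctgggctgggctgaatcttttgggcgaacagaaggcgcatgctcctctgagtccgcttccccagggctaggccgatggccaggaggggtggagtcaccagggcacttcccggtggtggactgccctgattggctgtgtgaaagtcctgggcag
The Mgll stretch held an E-box (CACGTG) starting at position -44 from the printed stretch's start site (88724412), a motif in 6.02% of 32851 mouse promoters. The Pnpla3 stretch held a cAMP response element (TGACGTCA) starting at position -46 from the start site of its RefSeq promoter (84167816), a motif in 1.55% of them. That site lies inside the annotated gene, whose start at 84167776 falls within the motif. Another start site of Mgll (88724704) had no match in its window. Of the start sites of Lipe, the one at 25395987 held an E-box at position -155 and the one at 25390112 had no match. The other motifs searched, the AP-1 element (TGANTCA, in 6.75% of promoters) and a PPAR response element written as AGGTCANAGGTCA (in 0.0335%), had no match in these windows, and no motif searched was found in those of Lipa, Pnpla2 and Abhd5. These letter matches describe the sequence only.

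Among the cytosolic genes, Pnpla2 (Entrez 66853, chr7:141455188-141460743, GRCm38) had an FPKM of 71.2 and 69.3 in HFD ARMs against 56.6 and 55.3 in HFD SMs. In ND mice it had 31.9 and 41.0 in ARMs against 29.4 and 29.0 in SMs. Both ARM libraries lay above both SM libraries in each diet. Its log2 fold change was 0.30 in HFD mice (SE 0.0621, adjusted p = 0.0135, edgeR), below the 1.5-fold threshold, and 0.32 in ND mice (SE 0.119, adjusted p = 0.179). Among all genes, both ARM libraries lay above both SM libraries in depth-scaled counts (CPM) for 26.2% in HFD mice and for 21.2% in ND mice. It held for 7 of the 8 lipase genes in HFD mice and for 5 of the 8 in ND mice.

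Abhd5 (Entrez 67469, chr9:122351616-122381524), the coactivator of the enzyme encoded by Pnpla2, had an FPKM of 9.52 and 9.70 in HFD ARMs against 10.01 and 9.35 in HFD SMs. In ND mice it had 12.4 and 9.76 in ARMs against 12.3 and 11.2 in SMs. The groups overlapped in both diets. The log2 fold change was -0.04 (SE 0.0768, adjusted p = 0.816, edgeR) in HFD mice and -0.09 (SE 0.128, adjusted p = 0.84) in ND mice, and its sign turned when single libraries were left out. It was the only one of the 8 genes with a negative log2 fold change, in either diet.

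Lipe (Entrez 16890, chr7:25379527-25398486) had an FPKM of 19.9 and 21.1 in HFD ARMs against 15.5 and 16.3 in HFD SMs, with no overlap. In ND mice it had 14.2 and 19.8 in ARMs against 13.4 and 14.3 in SMs, where the lower ARM library lay within the SM range. ARMs exceeded SMs by a log2 fold change of 0.30 (SE 0.069, adjusted p = 0.0222, edgeR) in HFD mice, below the 1.5-fold threshold, and 0.28 (SE 0.143, adjusted p = 0.392) in ND mice.

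Mgll (Entrez 23945, chr6:88724412-88828360) showed the largest change among the 8 genes in HFD mice. Its FPKM was 12.6 and 12.6 in HFD ARMs against 3.75 and 2.38 in HFD SMs. In ND mice it was 3.04 and 6.49 in ARMs against 2.01 and 2.51 in SMs. ARMs were above SMs without overlap in both diets, but the ND ARM libraries were far apart, and replicate 1 lay close to the SMs. In edgeR the log2 fold change was 1.99 (SE 0.137, adjusted p = 2.35e-05, edgeR) in HFD mice, rank 72 from the top of 13337 genes, and 1.10 (SE 0.264, adjusted p = 0.0257) in ND mice. Leaving out ND ARM replicate 2 lowered the ND value to 0.48, and leaving out ND SM replicate 1 to 0.92, and it was not called in either case. In HFD mice, Mgll was called with each library left out, at values from 1.73 to 2.31.

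Pnpla3 (Entrez 116939, chr15:84167776-84189521) was the lowest of the 8 genes in every library. It had an FPKM of 0.99 and 1.09 in HFD ARMs against 0.36 and 0.30 in HFD SMs, and estimated counts of 81.7 and 89.4 against 30.7 and 25.1. Its FPKM in ND mice was 0.34 and 0.51 for the ARM libraries and 0.10 and 0.12 for the SM libraries, from 23 and 31 counts against 6 and 8. The groups did not overlap in either diet. The log2 fold change was 1.63 (SE 0.23, adjusted p = 0.00168, edgeR) in HFD mice and 1.94 (SE 0.464, adjusted p = 0.0248) in ND mice. The HFD call was lost without replicate 2 of the HFD ARMs (1.58). The ND call was lost without either ND SM library (1.79 without replicate 1, 2.11 without replicate 2), without replicate 2 of the ND ARMs (1.61) and under DESeq2, while the direction held. The HFD counts were not whole numbers.

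**Figure D1:**
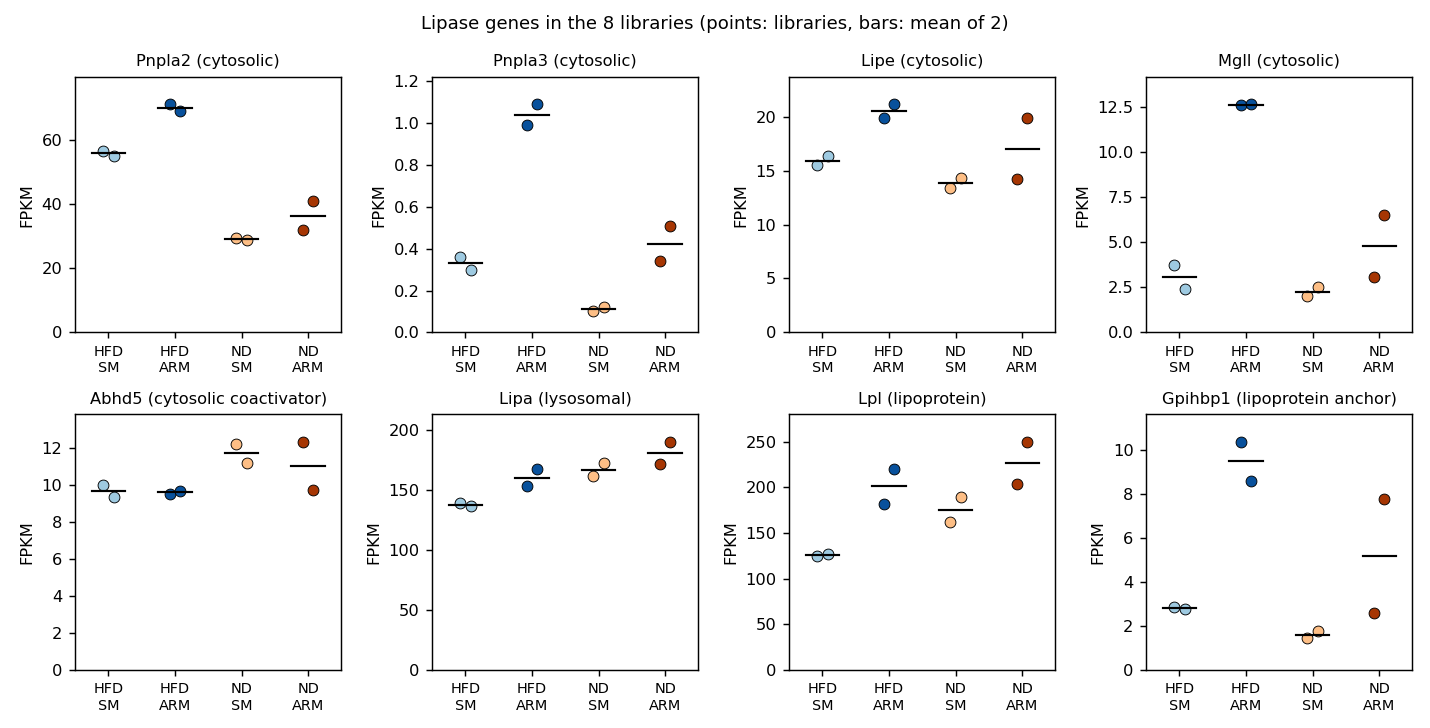
FPKM of each lipase gene (vertical axes, each starting at 0) in the 8 libraries, with a point for each library and a bar for the mean of 2. The HFD ARM libraries lie above the HFD SM libraries for every gene but Abhd5, and the ND ARM libraries of Mgll (3.04 and 6.49) and Gpihbp1 (2.57 and 7.80) are far apart.

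The lysosomal lipase gene Lipa (Entrez 16889, chr19:34492316-34527474) was expressed at between 137 and 190 FPKM in the 8 libraries. It had 153 and 168 FPKM in HFD ARMs against 139 and 137 in HFD SMs, and 172 and 190 in ND ARMs against 162 and 173 in ND SMs. The HFD groups did not overlap and the ND groups did. The log2 fold change was 0.19 (SE 0.063, adjusted p = 0.0918, edgeR) in HFD mice and 0.12 (SE 0.0998, adjusted p = 0.677) in ND mice, and it was not called in either diet by edgeR, DESeq2 or limma.

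Among the lipoprotein genes, Lpl (Entrez 16956, chr8:68880555-68906932) was the most highly expressed lipase gene in ARMs of both diets. Its FPKM was 182 and 221 in HFD ARMs against 124 and 127 in HFD SMs, and 204 and 250 in ND ARMs against 162 and 189 in ND SMs. ARMs lay above SMs without overlap in both diets. Its log2 fold change was 0.65 (SE 0.0815, adjusted p = 0.000885, edgeR) in HFD mice, just past the 1.5-fold threshold, and 0.37 (SE 0.118, adjusted p = 0.0965) in ND mice. The HFD value fell below 1.5-fold, to 0.52, without replicate 2 of the HFD ARMs, and the call was also lost in a fit without the filter on low counts. Its HFD counts were not whole numbers.

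Gpihbp1 (Entrez 68453, chr15:75596630-75598213), which encodes the anchor of lipoprotein lipase, had an FPKM of 10.4 and 8.62 in HFD ARMs against 2.85 and 2.79 in HFD SMs. In ND mice it had 2.57 and 7.80 in ARMs against 1.45 and 1.75 in SMs, from 27 and 69 counts against 14 and 18. ARMs were above SMs in both diets without overlap. Its log2 fold change was 1.72 (SE 0.195, adjusted p = 0.000485, edgeR) in HFD mice and 1.60 (SE 0.46, adjusted p = 0.0628) in ND mice, where it was not called. The ND value depended on single libraries, from 0.66 without replicate 2 of the ND ARMs to 2.19, where it was called, without replicate 1. In HFD mice it was called with each library left out, at values from 1.57 to 1.87.

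**Figure D2:**
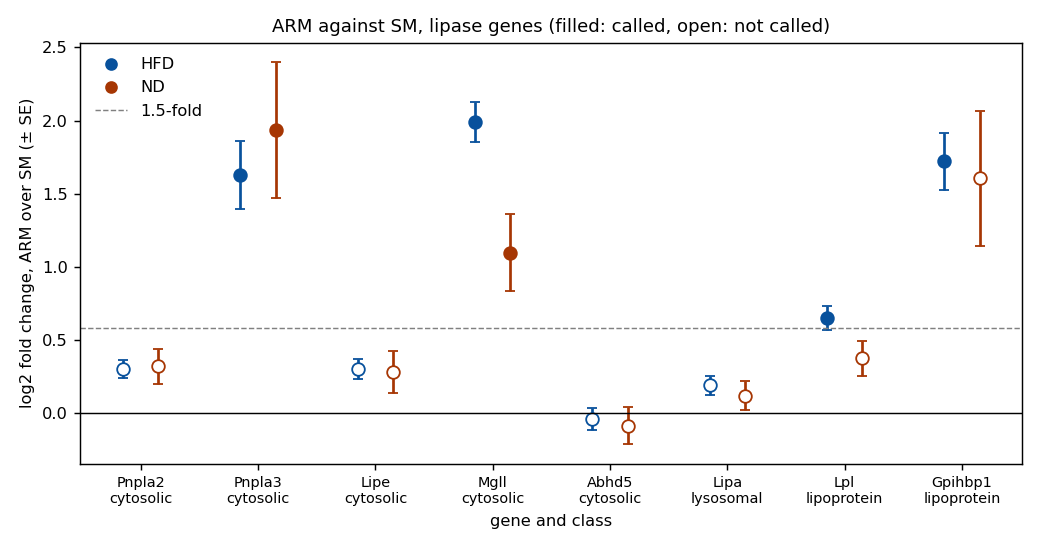
Log2 fold change of ARMs over SMs (vertical axis, ± SE, from edgeR) for the 8 genes in HFD and ND mice, with filled points for called genes and a dashed line at 1.5-fold. Mgll, Pnpla3 and Gpihbp1 stand between 1.10 and 1.99, while Pnpla2, Lipe, Abhd5 and Lipa stay between -0.09 and 0.32.

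Levels were compared between genes in FPKM, which is per transcript length. In HFD ARMs the mean FPKM ran from Lpl (201) and Lipa (160) through Pnpla2 (70.3), Lipe (20.5) and Mgll (12.6) to Abhd5 (9.61) and Gpihbp1 (9.51), with Pnpla3 (1.04) last. Abhd5 and Gpihbp1 overlapped there. In HFD SMs the order began with Lipa (138) and Lpl (126) in place of Lpl and Lipa, the libraries of the 2 genes not overlapping, and Mgll (3.07) fell below Abhd5 (9.68) to overlap with Gpihbp1 (2.82). In ND ARMs, Lpl (227) was above Lipa (181), and Gpihbp1 (5.19) and Mgll (4.77) overlapped below Abhd5 (11.1). In ND SMs, Lpl (176) and Lipa (167) overlapped, and Mgll (2.26) stood above Gpihbp1 (1.60).

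The contrast of classes within a library does not depend on its depth. Lipa made up 33.3% and 32.8% of the summed FPKM of the 8 genes in HFD ARMs against 39.5% and 39.0% in HFD SMs, and 39.0% and 36.2% in ND ARMs against 42.3% and 41.0% in ND SMs. The lysosomal share was thus lower in each ARM library than in either SM library of the same diet. The lipoprotein genes made up 41.8% and 44.9% in HFD ARMs against 36.1% and 37.1% in HFD SMs, and 46.9% and 49.0% in ND ARMs against 42.7% and 45.4% in ND SMs. The cytosolic share overlapped between ARMs and SMs in both diets, at 22.3% to 24.8% in HFD mice and 13.6% to 14.97% in ND mice. Shares of one sum are not independent of each other, and no test was made of them.

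Set against Lipa within each library, the log2 ratio in FPKM was higher in ARMs than in SMs by 1.86 for Mgll, 1.53 for Gpihbp1, 1.44 for Pnpla3, 0.45 for Lpl, 0.15 for Lipe and 0.11 for Pnpla2 in HFD mice. For Abhd5 this difference was -0.23. The groups of library ratios did not overlap for any of these 7 genes in HFD mice. Lipa itself lay higher in HFD ARMs than in HFD SMs without overlap, which lowers every ratio in ARMs. Abhd5, whose own levels overlapped, was separate only as a ratio. Pnpla2 was separate narrowly, at 0.414 in the lower ARM library against 0.406 in the higher SM library. The share of all genes with separate ratios was not computed in either diet. In ND mice the differences were 1.81 for Pnpla3, 1.38 for Gpihbp1, 0.87 for Mgll, 0.25 for Lpl and 0.19 for Pnpla2 without overlap, and 0.16 for Lipe and -0.21 for Abhd5 with overlap.

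**Figure D3:**
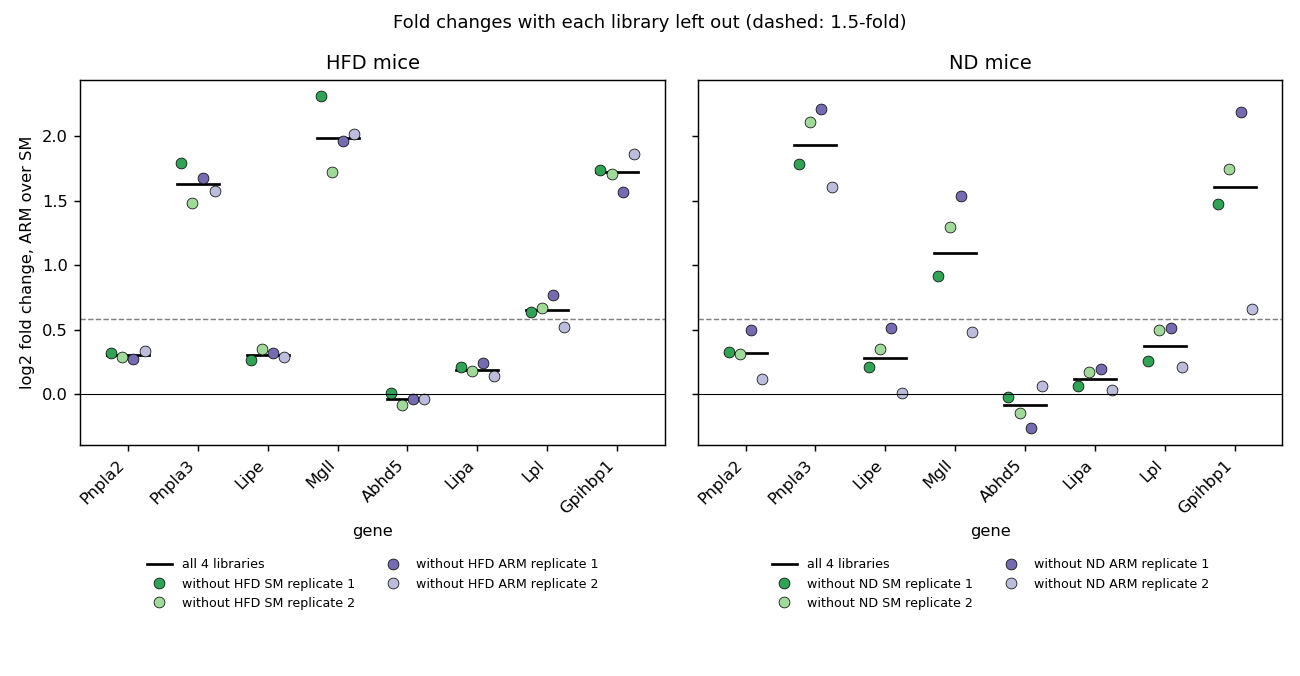
Log2 fold change of ARMs over SMs (vertical axis) for each gene with all 4 libraries of a diet (bars) and with each library left out in turn (points), the dashed line standing at 1.5-fold. In HFD mice Mgll stays between 1.73 and 2.31, while in ND mice the value without replicate 2 of the ARMs is 0.48 for Mgll and 0.66 for Gpihbp1.

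Whether the ARM against SM change differed between the diets was tested as an interaction in one edgeR fit of all 8 libraries. None of the 8 genes passed at an adjusted p under 0.05, 1 of them had an unadjusted p under 0.05 (Mgll), and DESeq2 and limma each called 0 of those they tested. Over all genes, 0.165% passed this test, and 1017 of 13358 had an unadjusted p under 0.05. For Mgll, the log2 fold change was larger by 0.88 in HFD mice (SE 0.374, edgeR adjusted p = 0.6). The difference was 0.26 for Lpl (SE 0.157), 0.11 for Gpihbp1 (SE 0.587), 0.06 for Lipa (SE 0.113), 0.03 for Abhd5 (SE 0.157), 0.0066 for Lipe (SE 0.178), -0.03 for Pnpla2 (SE 0.142) and -0.32 for Pnpla3 (SE 0.485), with adjusted p-values from 0.8 to 1. The standard errors were largest for Gpihbp1 and Pnpla3, which had the fewest counts. Without replicate 2 of the ND ARMs, the difference for Mgll was 1.503 and was called.

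The levels in HFD and ND mice are given side by side without a test, because each diet has a table of its own, made in another way, and diet and table cannot be told apart. The mean FPKM of Pnpla2 (± SD, n = 2) was 70.3 ± 1.34 in HFD ARMs and 36.4 ± 6.46 in ND ARMs, and of 55.9 ± 0.919 and 29.2 ± 0.29 in SMs. Its log2 ratio of HFD to ND was thus 0.96 in ARMs and 0.94 in SMs. The same ratio was 1.32 and 1.59 for Pnpla3, 0.29 and 0.20 for Lipe, and 1.08 and 0.82 for Gpihbp1, and for these 4 genes the HFD libraries lay above the ND libraries in both cell types. Mgll was higher without overlap in HFD ARMs (12.6 ± 0.0141 against 4.77 ± 2.44, log2 ratio 1.51), while its SM libraries overlapped (3.07 ± 0.969 against 2.26 ± 0.354, log2 ratio 0.41).

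The log2 ratio of HFD to ND was negative for Lipa (-0.17 in ARMs, -0.28 in SMs), Abhd5 (-0.19 and -0.28) and Lpl (-0.17 and -0.48). The HFD libraries lay below the ND libraries except for Lpl in ARMs, where they overlapped. The summed FPKM of the 5 cytosolic genes was 114 and 114 in HFD ARMs against 61.8 and 77.6 in ND ARMs, and 86.2 and 83.6 in HFD SMs against 57.2 and 57.2 in ND SMs. Over all genes, the median log2 ratio was -0.10 in ARMs and -0.13 in SMs. HFD libraries lay above ND libraries for 28.5% of all genes in ARMs and 27.4% in SMs, and below them for 43.2% and 46.4%. The ratio of Gpihbp1 depended on the scale most, at 1.37 in ARMs and 1.09 in SMs in CPM, and the gene length implied by its FPKM was 1.21 times as long in the HFD table as in the ND table, against 1.01 to 1.08 times for the other 7 genes.

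Genes around the cytosolic lipases were taken from lists written out by name. Of 9 genes of lipid droplet proteins, lipase inhibitors and fatty acid carriers tested in each diet, 7 were called higher in HFD ARMs (median log2 fold change 1.64) and 6 in ND ARMs (median 0.74), with 0 called lower. The median over all genes was -0.01 (HFD) and -0.02 (ND). From these libraries, the study had itself named Hilpda, Plin1, Plin4 and Cidec in both diets, and Fabp4 and Fabp5 in HFD mice. Their direction there is not independent evidence. In ND mice, the study's RT-PCR showed no significant difference between ARMs and SMs for Fabp4 and Fabp5. Plin4 (3.06 in HFD mice, 1.125 in ND mice), Plin1 (2.87 and 1.88) and Cidec (2.51 and 1.5), which coat or enlarge lipid droplets, had the largest log2 fold changes of the list in HFD mice. G0s2, an inhibitor of the enzyme encoded by Pnpla2, had an FPKM of 1.92 and 2.80 in HFD ARMs against 0.70 and 0.77 in HFD SMs (log2 fold change 1.64, SE 0.362, adjusted p = 0.0192, edgeR) and was called in HFD mice, but not by DESeq2 nor without replicate 1 of the HFD SMs (1.58) or either HFD ARM library (1.87 and 1.36). In ND mice its ARM libraries lay below the SM libraries, at 1.42 and 2.09 against 2.61 and 2.45 FPKM, and it was not called (-0.54). The difference between diets was 2.16 for G0s2 (SE 0.506) and did not pass (adjusted p = 0.132, edgeR), while that of Plin4, 1.92 (SE 0.335), did (adjusted p = 0.0389, edgeR). Hilpda, another inhibitor of that enzyme, was called in both diets (0.67 and 0.83), as were the fatty acid carriers Fabp4 (1.69 and 0.74) and Fabp5 (1.11 and 0.61). DESeq2 did not call Fabp4 in ND mice. Plin2, the most expressed droplet protein gene, had 634 and 642 FPKM in HFD ARMs against 593 and 572 in SMs and was not called (0.10 in HFD mice, 0.20 in ND mice). With single libraries left out, 5 to 7 genes of this list were called in HFD mice and 2 to 6 in ND mice. Without replicate 2 of the ND ARMs, the ND values were 0.45 for Fabp4 and 1.116 for Plin1, neither of them called.

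Another list held genes of other PNPLA, ABHD, carboxylesterase and neutral lipid hydrolases, 14 of them tested in each diet. Ces1d, a carboxylesterase of lipid droplets, was called in both diets (log2 fold change 2.28 in HFD mice, 1.61 in ND mice) and Ces2g, at under 1 FPKM, in ND mice (1.47). DESeq2 did not call Ces2g, nor was it called without either ND SM library (1.45 and 1.49) or replicate 2 of the ND ARMs (1.23). The ND value of Ces1d was 0.88 and not called without replicate 2 of the ND ARMs. The list medians were 0.09 and 0.05, and the most expressed members, Abhd12 (0.11 and 0.00) and Daglb (0.07 and 0.03), were not called. Of the receptors, G proteins and kinases that regulate adipocyte lipolysis, 7 of 28 were called higher in HFD ARMs (median 0.08) and 2 of 24 in ND ARMs (median 0.08). Adrb3, the main lipolytic adrenergic receptor of mouse adipocytes, was called in both diets (2.71 and 2.15), as was the inhibitory G protein gene Gnai1 (1.94 and 1.30). In ND mice DESeq2 did not call Gnai1 and gave no adjusted p for Adrb3. There, neither gene was called when replicate 1 of the SMs (1.71 and 1.02) or replicate 2 of the ARMs (1.95 and 1.202) was left out, nor was Adrb3 without replicate 2 of the SMs (2.82). The other 5 calls in HFD mice were Tshr (3.03), Adora1 (2.40), Ptger3 (2.20) and Hcar1 (1.86), all at an FPKM of 0.4 or less, and the glycerol channel gene Aqp7 (0.73). Between 0 and 4 genes of this list were called higher with single libraries left out in either diet, and 2 (HFD) and 0 (ND) by DESeq2. The G protein genes Gnai2 (0.04 and 0.03) and Gnas (0.12 and 0.08), the most expressed of the list, were not called.

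None of the 25 genes of lysosomal lipid handling and acid hydrolysis was called in either diet by edgeR, DESeq2 or limma, beside 6 in HFD mice and 0 in ND mice at an unadjusted p under 0.05 in edgeR. Over all genes, 3089 of 13337 in HFD mice and 1858 of 12441 in ND mice had such a p. The median log2 fold change of the lysosomal list was -0.04 (HFD) and 0.04 (ND), next to 0.19 and 0.12 for Lipa. The protease gene Ctsb (-0.02 and 0.02) and the saposin precursor gene Psap (0.14 and 0.11) were the most expressed. Of the partners of lipoprotein lipase and related lipases, 2 of 16 were called in HFD ARMs and 3 of 14 in ND ARMs, with medians of 0.14 and 0.14. Hspg2, the perlecan core protein gene, was called in both diets (1.21 and 1.51), as was the heparan sulfate proteoglycan gene Sdc1 (1.05 and 0.77). The receptor gene Vldlr, at 0.73 FPKM or less, was called in ND mice (0.999). With single ND libraries left out its value ran from 0.906 to 1.09, and none of those fits called it. None of the 3 ND calls was made by DESeq2, and that of Sdc1 fell to 0.40 without replicate 2 of the ND ARMs. Apoe (-0.20 and 0.03) and the fatty acid transporter gene Cd36 (-0.08 and 0.02), the most expressed members, were not called. Angptl4, which encodes an inhibitor of lipoprotein lipase and was named for that role after its values were seen, had log2 fold changes of 0.07 and 0.04.

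**Figure D4:**
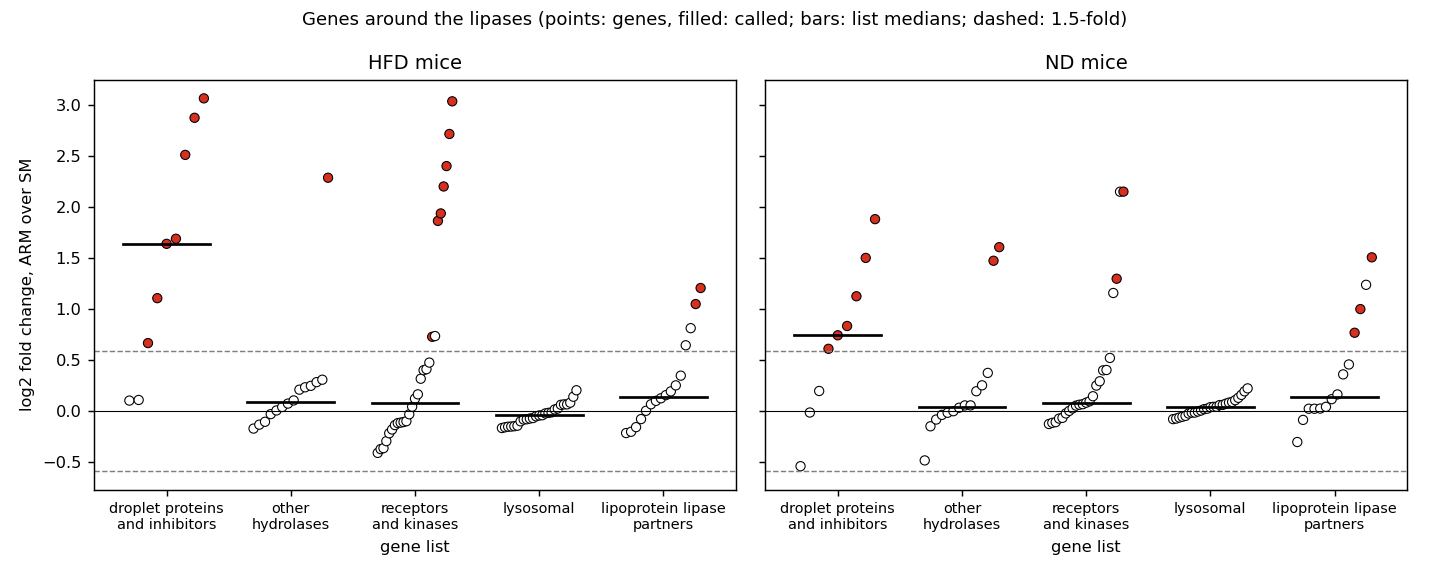
Log2 fold change of ARMs over SMs (vertical axis) for the genes tested of 5 lists around the lipases, with a point for each gene but 1 that is not shown, filled where called, a bar at each list median and dashed lines at 1.5-fold in either direction. The median of the droplet list is 1.64 (HFD) and 0.74 (ND), and the lysosomal list has no filled point.

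Markers of other cell types moved with the ARM libraries. The 18 adipocyte markers, none of them a lipase but 6 of them shared with the droplet and receptor lists, summed to 224 and 244 FPKM in HFD ARMs against 43.9 and 44.5 in HFD SMs, and 16 of the 17 tested were called higher. In ND mice they summed to 198 and 331 in ARMs against 95.0 and 118 in SMs, and 13 of 16 were called. The study had itself named Adipoq, Lep, Dgat2, Plin1, Plin4, Cidec, Fasn and Thrsp from these libraries, so their direction is not independent evidence. The ND ARM library with the larger sum, replicate 2, was also the higher of the pair for every lipase gene but Abhd5. In HFD ARMs, replicate 2 also had the larger sum. There, Pnpla2 (71.2 and 69.3 FPKM) and Gpihbp1 (10.4 and 8.62) were lower in replicate 2, and the other lipase genes were higher. The share of all genes higher in replicate 2 was not computed. The 17 blood endothelial markers summed to 137 and 137 in HFD ARMs against 78.1 and 73.6 in HFD SMs, with 15 called, and to 58.3 and 89.5 in ND ARMs against 57.1 and 60.5 in ND SMs, with 1 called. In ND mice all 17 had a positive log2 fold change, 10 had an unadjusted p under 0.05, and 0 to 10 were called with single libraries left out. No listed marker of either type was at 0 in every library. The part of adipocyte and endothelial RNA in the lipase differences was not tested.

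Fibroblast markers were called higher for 7 of 12 in HFD mice and 9 of 12 in ND mice, and mesothelial markers for 0 of 9 and 7 of 9. In HFD mice, 1 of the 9 mesothelial markers had an unadjusted p under 0.05 in edgeR, and DESeq2 and limma called 0. Pericyte and smooth muscle markers were called for 4 of 10 and 3 of 9, and lymphatic markers for 3 of 7 and 4 of 7. The log2 fold change was positive for 9 (HFD) and 12 (ND) fibroblast markers, and for 5 and 6 lymphatic markers. Lyve1, the most expressed gene of the lymphatic list, was lower in HFD ARMs (459 and 399 FPKM) than in HFD SMs (647 and 609), short of 1.5-fold (-0.58). Prox1, of the same list, was at 0.28 FPKM or less in every library, so the level of Lyve1 is not read as lymphatic RNA. The lymphatic genes called in HFD mice were at 0.51 FPKM or less. DESeq2 called 1 (HFD) and 2 (ND) lymphatic markers, and limma 0 and 2. Of the 15 macrophage markers, edgeR, DESeq2 and limma called 0 in either diet, with 6 in HFD mice and 2 in ND mice at an unadjusted p under 0.05. Over all genes, 3089 of 13337 in HFD mice and 1858 of 12441 in ND mice had such a p in edgeR. Of the T and NK cell, B cell and neutrophil markers, 2, 3 and 5 could be tested in HFD mice and 1, 3 and 6 in ND mice, the others being too low or not listed. They had 0 calls higher in ARMs with edgeR and DESeq2 (limma called 1 neutrophil marker in HFD mice), at an unadjusted p under 0.05 for 0, 1 and 1 of them in HFD mice and 0, 0 and 4 in ND mice, and 1 neutrophil marker was called lower in ND mice.

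**Figure D5:**
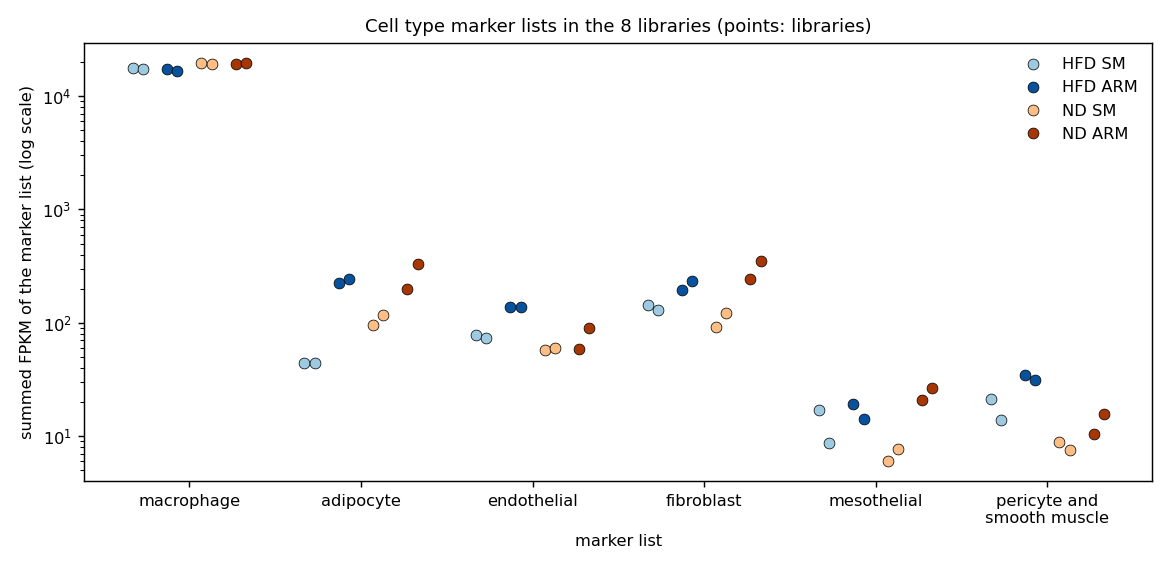
Summed FPKM of 6 cell type marker lists (vertical axis, log scale) with a point for each of the 8 libraries. Macrophage markers sum to between 16621 and 19708 in all groups, while adipocyte markers sum to between 198 and 331 in ARMs and between 43.9 and 118 in SMs.

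Genes with the pattern most like each lipase gene were ranked by Pearson's r of log2 CPM over the 8 libraries, after centring within each diet, among 12343 genes tested in both diets. The number of genes with an r over 0.95 ran from 46 for Lipe and Abhd5 to 227 for Pnpla3, and was 137 for Mgll. The r values are descriptions over 8 points that share their ARM or SM origin and their diet. They were highest for Tie1 (0.998), Aoc3 (0.997) and Pck1 (0.996) with Mgll, of which Tie1 is an endothelial receptor gene and Pck1 was among the adipocyte markers. The highest for Pnpla3 were Igfbp7 (0.997), Creb3l1 (0.997) and Postn (0.994). Pnpla2 was most like Lama5 (0.994), Cd109 (0.993) and Gpihbp1 (0.991), and Gpihbp1 was most like Pnpla2 (0.991), Wwtr1 (0.989) and Trp53i11 (0.988). For Lpl they were Mest (0.996), Jag1 (0.991) and Sema4d (0.991), and for Lipa 1700025G04Rik (0.994), Arl5c (0.992) and Alcam (0.991). Lipe was most like Cyb5r3 (0.990), Myo1e (0.989) and Npr2 (0.982), and Abhd5 most like Cycs (0.991), Alg6 (0.991) and Pdcd7 (0.986). Among the lipase genes, r was 0.977 between Lipa and Lpl and 0.942 between Mgll and Lpl, and Abhd5 had a negative r with each of the other 7 genes, from -0.86 with Lipe to -0.48 with Pnpla3.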

How the data were processed

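Macrophages sorted from mouse eWAT were examined by RNA-seq in 8 libraries. The authors deposited 1 table per diet, giving each gene's estimated count, FPKM and TPM by library, on the mm10 genome per the submitters' processing notes. The aligner, the counting program and the annotation are not given in the sources used here. The deposited estimated counts were not whole for 32.3% to 32.9% of genes in HFD libraries and 8.55% to 9.36% in ND libraries, so the tables were made differently. Their columns of group averages were not used.

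Counts (total 14508824 to 19040133 per library) were rounded and each diet was fitted with edgeR 4.0.16 in R 4.3.3 (TMM, filterByExpr, quasi-likelihood test, Benjamini-Hochberg adjustment over all genes). Calls required more than a 1.5-fold difference and an adjusted p under 0.05, and for the interaction the adjusted p alone. SE is the log2 fold change over the square root of F. CPM are counts over the library total times the TMM factor. FPKM and TPM were taken as deposited by the authors. Symbols turned into dates (26 and 24) were named by Entrez ID. Replicates are pools, and nothing says how their mice were assigned, so p-values measure the spread between these libraries.

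Members and lists were chosen with earlier results of these data known. The text names the 8 genes, from each list every gene called in either diet and the 2 most expressed, and for each of the 8 genes the 3 with the highest Pearson's r. The values of 1 gene of the receptor list are not reported here, though its list counts include it. Alternatives were DESeq2 1.42.0, library totals, upper-quartile factors, other filters, the unadjusted threshold of the study's methods (log2 fold change over 0.6), a joint fit of the 8 libraries, a replicate block, limma 3.58.1 on log2(FPKM + 1) or log2(FPKM + 0.1) for genes reaching 1 FPKM in 2 or more libraries (and without that filter), and each library left out. The pipeline was tested on simulated data. Promoters and gene positions are from RefSeq, GRCm38.p6. Figures were drawn with matplotlib 3.10.9.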

Additional observations from a re-analysis of the deposited data

Results flagged for a closer look

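The ARM against SM change of Plin4, a droplet coat protein gene, passed the test of the difference between diets, being 1.92 larger on the log2 scale in HFD mice than in ND mice (SE 0.335, adjusted p = 0.0389, edgeR). Plin4 was also on the adipocyte marker list. Of the other listed genes, the adipocyte marker Lep passed too (1.80, adjusted p = 0.038, edgeR). The fibroblast marker Fbn1 passed in the other direction (-1.31, adjusted p = 0.0167, edgeR). The other adipocyte markers tested did not pass. The FPKM of Plin4 was 4.48 and 3.76 in HFD ARMs against 0.53 and 0.43 in HFD SMs, and 2.47 and 4.16 in ND ARMs against 1.27 and 1.80 in ND SMs. With single libraries left out, the difference lay between 1.62 and 2.36. It did not pass without replicate 1 or 2 of the HFD SMs, of the HFD ARMs or of the ND SMs, nor with limma on log2(FPKM + 1) (1.04), and adjusted p-values over all alternatives ran from 6.44e-05 to 0.223.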

How the results depend on the processing

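The direction of Mgll, Pnpla3, Lpl and Gpihbp1 held in each diet under every alternative run. In HFD mice 4 of the 8 genes were called, 3 to 4 under the other count fits and limma with a filter, 0 by limma on log2(FPKM + 1) without a filter (where 2993 genes had an unadjusted p under 0.05), and 2 to 4 with single libraries left out. In ND mice 2 were called, 3 without a filter, under the methods threshold, in one fit of all 8 libraries and with the replicate block (each adding Gpihbp1), 1 by DESeq2, 1 at 10 counts in every library (where Pnpla3 was not tested), 0 under the 3 limma settings, and 0 to 3 with single libraries left out. For the difference between diets the count was 0, against 1 (Mgll, 0.91) with the replicate block and 0 to 1 with single libraries left out. The block also called the diet difference of G0s2 (2.15). The replicate numbers were not taken to pair the libraries, since only 2 share a diet and their deviations correlated at 0.066 (HFD) and 0.307 (ND).

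The difference between diets for Pnpla2 turned to 0.016 with library totals and 0.026 with limma. With single libraries left out, signs turned for Abhd5 (-0.088 to 0.012 in HFD mice, -0.26 to 0.064 in ND mice) and for the diet differences of Abhd5 (-0.11 to 0.24), Lipe (-0.19 to 0.29), Pnpla2 (-0.17 to 0.18), Pnpla3 (-0.57 to 0.013) and Gpihbp1 (-0.45 to 1.06). The cause was not tested. In SMs the log2 ratio of HFD to ND moved by more than the replicate spread for Pnpla2 (TPM 1.01, CPM 1.04), Lipe (TPM 0.27), Abhd5 (CPM -0.18), Lipa (TPM -0.20, CPM -0.18) and Gpihbp1 (CPM 1.09).

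Over all genes, 595 were called higher in HFD ARMs, against 922 under the methods threshold, 360 by DESeq2, 167 without a filter, 319, 382 and 33 under the 3 limma settings, and 198 to 587 with single libraries left out. In ND ARMs 442 were, against 794, 259 by DESeq2, 202, 208 and 0 by limma (1915 at an unadjusted p under 0.05), 719 with the replicate block and 171 to 617 with libraries left out. The difference between diets passed for 22 genes, against 93 by DESeq2, 41 without a filter, 13 by limma, 187 with the replicate block and 0 to 102 with libraries left out. Depth limits Pnpla3 most, at 6 and 8 counts in ND SMs.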
